A study of Rattus norvegicus with 10 samples.

Results

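The 31 genes described here mark excitatory neurons of the cerebral cortex, most of them by layer, and were followed in the medial prefrontal cortex (mPFC) of single rats. Members were chosen by symbol from a fixed list of 9 upper layer, 5 layer 5, 12 layer 6 and 5 cross-layer markers, and 28 of the 31 matched a name in the deposited tables of 22081 genes. Rasgrf2, an upper layer marker, Pou3f1, a layer 5 marker, and Neurod2, a neuronal transcription factor, had no match and were not analysed here. All 28 matched members passed the filter on low counts, which kept 14135 genes.

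RNA came from the mPFC (infralimbic, prelimbic and anterior cingulate cortex dissected together) of 10 male Sprague-Dawley rats, 1 library per rat. Every rat had earned intravenous cocaine (0.75 mg/kg in each infusion) and then gone through 10 days of abstinence, and brains were collected on day 27, so there was no drug-naive group. The 5 High Cue (HC) and 5 Low Cue (LC) rats differed in how often they pressed a lever for the cue that had been paired with cocaine. The study also reports that HC rats took more cocaine in total than LC rats, so intake and cue responding cannot be told apart here. A second description is the word Cue or NoCue in the name of each rat's deposited table, and it was used because the sample labels do not give it. HC rats 9, 10 and 11 and LC rats 12, 13 and 14 carry the word Cue, and HC rats 15 and 16 and LC rats 2 and 4 the word NoCue. The study gave a subset of rats a second cue test on the day of tissue collection. The labels do not say that the word marks those rats, so Cue and NoCue below mean the word alone.

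The neocortex is built of layers whose excitatory neurons differ in their targets. Upper layer neurons project mainly within the cortex, layer 5 holds neurons that project to the brainstem, spinal cord and striatum, and layer 6 holds neurons that project to the thalamus, with a thin layer 6b beneath them next to the white matter. Transcription factors such as Cux2, Fezf2 and Tbr1 set up these identities in development and persist in the adult, while glutamate release depends on vesicular transporters, chiefly Slc17a7 in the cortex. The mPFC takes part in the control of drug seeking, and its deep layers send much of its output to the striatum, thalamus and midbrain.

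Exon reads ranged from 11296517 to 26664008 per rat. Levels are given either as TPM (exon reads per length of exon, scaled to a fixed total per library by the authors), which allows genes to be set beside each other, or as CPM (exon reads of a gene per 1000000 of its library, after TMM scaling), which is used between rats. The library of LC rat 2 stood apart: 28.4% of its exon reads fell on mitochondrially encoded genes, where the other 9 libraries had 7.65 to 12.0%, and its TMM factor was 0.772 against 1.00 to 1.05. It held the highest CPM of the 10 rats for 15 of the 28 members and the lowest for 3, so results that rest on it are given with and without it. The summed level of 12 markers of striatal projection neurons reached 793 CPM in LC rat 4 and was next highest in LC rat 2 (442 CPM), where the other 8 rats had 329 to 347 CPM. Striatal neurons also express 6 of the members (Bcl11b, Foxp1, Foxp2, Tle4, Crym and Calb1).

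All 28 members had exon reads in every rat. For Ntsr1, exon reads unique to the gene numbered 0 in HC rat 15 and LC rats 12 and 13, so its detection there is not certain. Slc17a7, the main vesicular glutamate transporter of cortical neurons, had the highest median level over the rats, at 1293 TPM, and Slc17a6, the transporter typical of thalamic and other subcortical neurons, had a median of 6.17 TPM. Crym, a thyroid hormone binding protein, had a median of 396 TPM. Among upper layer markers the medians ran from 5.31 TPM for Mdga1, a cell adhesion gene, to 127 TPM for Calb1, the calcium buffer calbindin. Layer 5 markers lay between 26.8 TPM for Bcl11b and 70.8 TPM for Fezf2, transcription factors of subcerebral projection neurons. Layer 6 markers spread most, from 2.65 TPM for Ntsr1, a neurotensin receptor gene, to 102 TPM for Tbr1, a T-box factor of corticothalamic neurons. In these bulk samples, fewer cells of a type and less RNA per cell cannot be told apart.

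**Figure D1:**
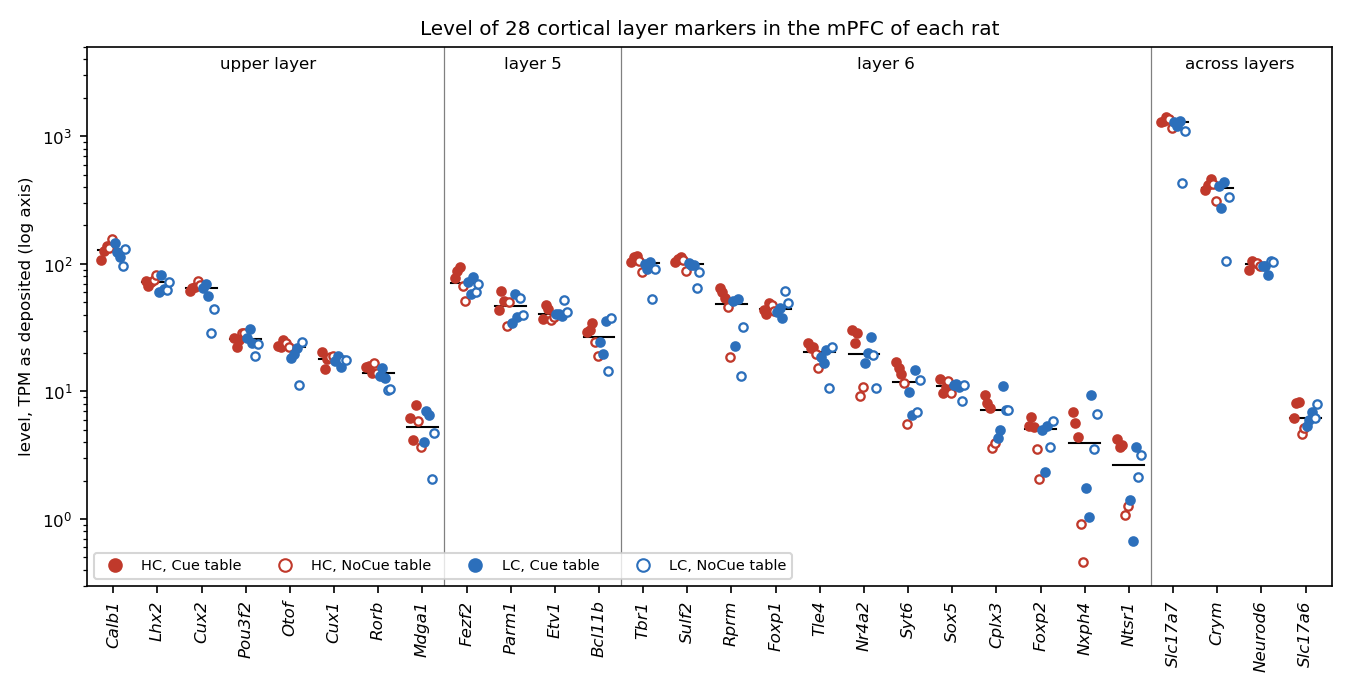
Level of each of the 28 matched members in each rat, as TPM on a log axis; a point is 1 rat, the line is the median of 10 rats, and members are ordered by layer group and median. Slc17a7 stands highest at a median of 1293 TPM, and the points of Nxph4 and Ntsr1 spread most widely.

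The members varied between rats by layer group. The standard deviation of log2(CPM + 1) over the 10 rats had a median of 0.22 among 8 upper layer markers, 0.36 among 4 layer 5 markers, 0.50 among 12 layer 6 markers and 0.33 among 4 cross-layer markers, beside 0.20 over all genes tested. Without LC rat 2 the same medians were 0.16, 0.28, 0.51 and 0.18, beside 0.13. The layer 6 group was as variable without that library as with it, while the spread of the other groups narrowed. The layer 6 group was not uniform, since Tbr1 and Sulf2, an extracellular sulfatase, were among the steadiest members, with a highest rat only 1.22 and 1.20 times the lowest.

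In the values that follow, the 5 HC rats are listed in the order 9, 10, 11, 15 and 16, and the 5 LC rats in the order 12, 13, 14, 2 and 4. The widest range belonged to Nxph4, a secreted neurexophilin of layer 6b neurons, at 4.79, 4.04, 2.98, 0.655 and 0.348 CPM in HC rats and 1.31, 0.756, 6.83, 4.43 and 5.15 CPM in LC rats. Its highest rat lay 19.6 times above its lowest, and its lowest value rests on 4 exon reads. Cplx3, a complexin that regulates vesicle release and marks layer 6b, was at 14.1, 12.6, 10.9, 5.57 and 6.53 CPM in HC rats and 7.06, 7.85, 17.6, 19.4 and 12.1 CPM in LC rats. For both genes the 4 lowest rats were HC rats 15 and 16 and LC rats 12 and 13, which come from both phenotypes.

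The same 4 rats held the 4 lowest levels of 2 further layer 6 markers, named after their values were seen. For the other layer 6 members, Foxp1, Foxp2, Nr4a2, Rprm, Sox5, Sulf2, Tbr1 and Tle4, the 4 lowest rats were not this set, though some of the same rats were among them. The 4 rats were taken from the Nxph4 values themselves, and the share of all genes with this order of rats was not taken. The number of members that share it is therefore no result about layer 6. Syt6, a synaptotagmin of corticothalamic neurons, was at 33.3, 30.6, 26.3, 23.3 and 11.8 CPM in HC rats and 20.9, 13.3, 30.3, 24.5 and 26.8 CPM in LC rats. Ntsr1, the standard marker of corticothalamic neurons in mice, was at 8.26, 7.41, 7.29, 2.15 and 2.70 CPM in HC rats and 3.04, 1.39, 7.53, 7.51 and 6.98 CPM in LC rats. The Ntsr1 values are uncertain: its gene model overlaps those of Ogfr and NEWGENE_1308612, and only 2.62% of its exon reads were unique to it. Its calls below carry the same limit. Among upper layer markers the order was the opposite for Cux2, a homeobox factor of upper layer neurons, at 138, 149.6, 146, 170.1 and 169 CPM in HC rats and 158, 165, 134, 117 and 111 CPM in LC rats. HC rats 15 and 16 and LC rats 12 and 13 had its 4 highest levels.

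**Figure D2:**
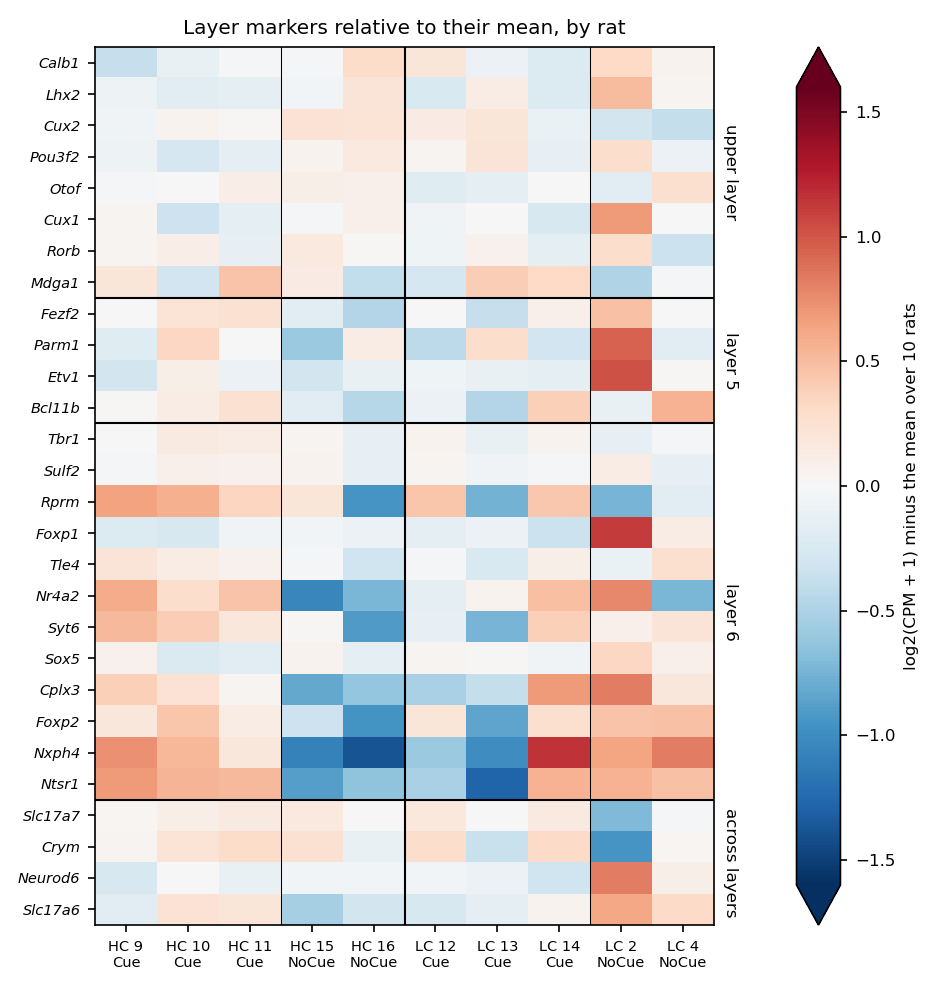
Each member's log2(CPM + 1) in each rat minus its mean over the 10 rats; red is above the mean, blue below, rows are genes by layer group and columns are rats by phenotype and table word. The lower layer 6 rows (Cplx3 to Ntsr1) turn blue in HC rats 15 and 16 and LC rat 13, and the column of LC rat 2 holds many of the deepest colours.

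The 250 bases upstream of the annotated start are shown for the layer 6 genes of this pattern that the sequence table holds, and for Nr4a2, a nuclear receptor gene described below, because Cplx3, Syt6 and Ntsr1 share the pattern described above and Nr4a2 is the member with an adjusted p under 0.05 in a fit described later. They come from RefSeq on the rat build GRCr8, which held an upstream window for 23 of the 31 members, and not from Rnor_6.0, the build of the expression tables. Each reads 5′ to 3′ on the gene's own strand and ends at the base before the start. Capitals mark TGACG, the core of the cAMP response element TGACGTCA, and TCACACC, a site of T-box factors such as Tbr1, on either strand.
Nr4a2 (chr3:62104888-62105137, minus strand): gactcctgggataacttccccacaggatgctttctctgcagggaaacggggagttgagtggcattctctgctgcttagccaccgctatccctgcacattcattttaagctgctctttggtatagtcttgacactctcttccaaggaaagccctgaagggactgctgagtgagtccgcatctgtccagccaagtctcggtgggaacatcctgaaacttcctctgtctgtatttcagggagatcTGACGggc
Ntsr1 (chr3:187983528-187983777, plus strand): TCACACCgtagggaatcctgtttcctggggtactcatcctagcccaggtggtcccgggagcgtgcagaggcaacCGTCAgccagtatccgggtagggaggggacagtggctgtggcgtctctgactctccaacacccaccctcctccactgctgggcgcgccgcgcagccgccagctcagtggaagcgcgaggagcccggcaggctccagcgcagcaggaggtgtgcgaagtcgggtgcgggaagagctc
Syt6 (chr2:193781226-193781475, plus strand): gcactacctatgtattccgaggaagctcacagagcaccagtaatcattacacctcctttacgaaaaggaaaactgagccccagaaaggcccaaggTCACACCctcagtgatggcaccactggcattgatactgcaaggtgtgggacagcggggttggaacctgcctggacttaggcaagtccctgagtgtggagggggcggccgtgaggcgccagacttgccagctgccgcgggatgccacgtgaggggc
Cplx3 (chr8:66906201-66906450, minus strand): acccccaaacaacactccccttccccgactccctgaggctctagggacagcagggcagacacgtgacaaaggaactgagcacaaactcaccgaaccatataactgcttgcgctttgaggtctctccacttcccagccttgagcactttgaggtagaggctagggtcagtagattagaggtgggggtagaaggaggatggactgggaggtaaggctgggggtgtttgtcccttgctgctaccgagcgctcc
TCACACC was found in the windows of Ntsr1 and Syt6 among 9 layer 6 members, and in 3.22% of all 33469 windows of this length. TGACG was found in those of Nr4a2 and Ntsr1, and in 18.2% of all windows. The full TGACGTCA, which contains it, occurred in 1.59% of all windows and among the members only in that of Neurod6. Cplx3 held neither motif. A match to these letters is a description of the sequence and not a binding site.

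The first comparison asks whether the mPFC of HC and LC rats differed in these markers. None of the 28 members reached an unadjusted p under 0.05 in edgeR's quasi-likelihood test, where 1.74% of all genes tested did, and no member and no gene had an adjusted p under 0.05 (smallest Benjamini-Hochberg adjusted p 0.885 over all genes). DESeq2 and limma-voom also gave 0 members at an unadjusted p under 0.05, beside 301 and 182 genes of all tested. HC and LC rats overlapped for every member, beside 0.439% of all genes without overlap. The log2 fold change (HC minus LC) had a median of −0.10 over the members and 0.00 over all genes, and 16 of 28 were below 0. Without LC rat 2 the median was 0.01, 13 were below 0, and again no member was called, beside 2.08% of all genes.

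By layer, the largest differences stayed within the spread between rats. Among upper layer markers Cux2 differed by 0.17 (SE 0.12), its HC mean being 154.6 ± 14.2 CPM and its LC mean 137 ± 23.9 CPM (SD, 5 rats each). Cux1, its relative in upper layer neurons, was at 40.6, 31.1, 35.5, 38.3 and 41.4 CPM in HC rats and 37.7, 39.6, 32.7, 63.4 and 39.3 CPM in LC rats, a difference of −0.18 (SE 0.16). LC rat 2 alone lay outside the range of the others, and without it the Cux1 difference was 0.01. Rorb, an orphan nuclear receptor of layer 4 neurons, was at 16.7, 17.5, 14.7, 18.1 and 16.4 CPM in HC rats and 15.3, 17.0, 14.5, 19.8 and 12.5 CPM in LC rats. Its HC values all lay inside the LC range.

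In layer 5, Etv1, an ETS factor, was at 114, 150.2, 132, 115 and 129 CPM in HC rats and 134, 129, 125, 285 and 143 CPM in LC rats, a log2 difference of −0.35 (SE 0.21). Parm1, a membrane mucin gene, was at 94.8, 137, 109, 71.9 and 118 CPM in HC rats and 81.1, 133, 88.2, 211 and 96.0 CPM in LC rats, a difference of −0.20 (SE 0.26). Both rested on LC rat 2, the highest in each, and without it the differences were −0.05 and 0.09. Fezf2 was at 71.7, 83.8, 85.7, 63.4 and 51.7 CPM in HC rats and 71.8, 55.5, 76.0, 100.1 and 71.9 CPM in LC rats, which overlapped over most of their range.

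In layer 6, Nxph4 differed by −0.53 (SE 0.69) and Cplx3 by −0.36 (SE 0.33), with wide errors beside the range between rats shown above. Without LC rat 2 they were −0.47 and −0.19. Rprm, reprimo, a cell cycle inhibitor expressed in layer 6, differed by 0.34 (SE 0.33), and by 0.22 without that library. Tle4, a corepressor of corticothalamic neurons, was at 76.7, 72.1, 70.2, 65.0 and 53.1 CPM in HC rats and 64.9, 56.0, 71.1, 62.0 and 79.7 CPM in LC rats, a difference of 0.02 (SE 0.12). Its means were 67.4 ± 9.03 and 66.7 ± 9.04 CPM (SD, n = 5 each).

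Of the cross-layer genes, Slc17a7 was at 1829, 1914, 1978, 1995 and 1791 CPM in HC rats and 2020.2, 1791, 1985, 1095 and 1759 CPM in LC rats, a difference of 0.14 (SE 0.14). LC rat 2 was the low one, and without it the difference was 0.01. Neurod6, a basic helix-loop-helix factor of cortical excitatory neurons, was at 77.9, 93.6, 85.5, 90.4 and 90.6 CPM in HC rats and 90.2, 87.2, 74.8, 165 and 99.3 CPM in LC rats. LC rat 2 was again apart, this time as the highest, and the difference of −0.23 (SE 0.18) was 0.00 without it. For each of the 28 members an exact two-sided permutation of the phenotype labels on log2(CPM + 1) means gave p of 0.095 or more for HC against LC, where the smallest possible is 0.0079.

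**Figure D3:**
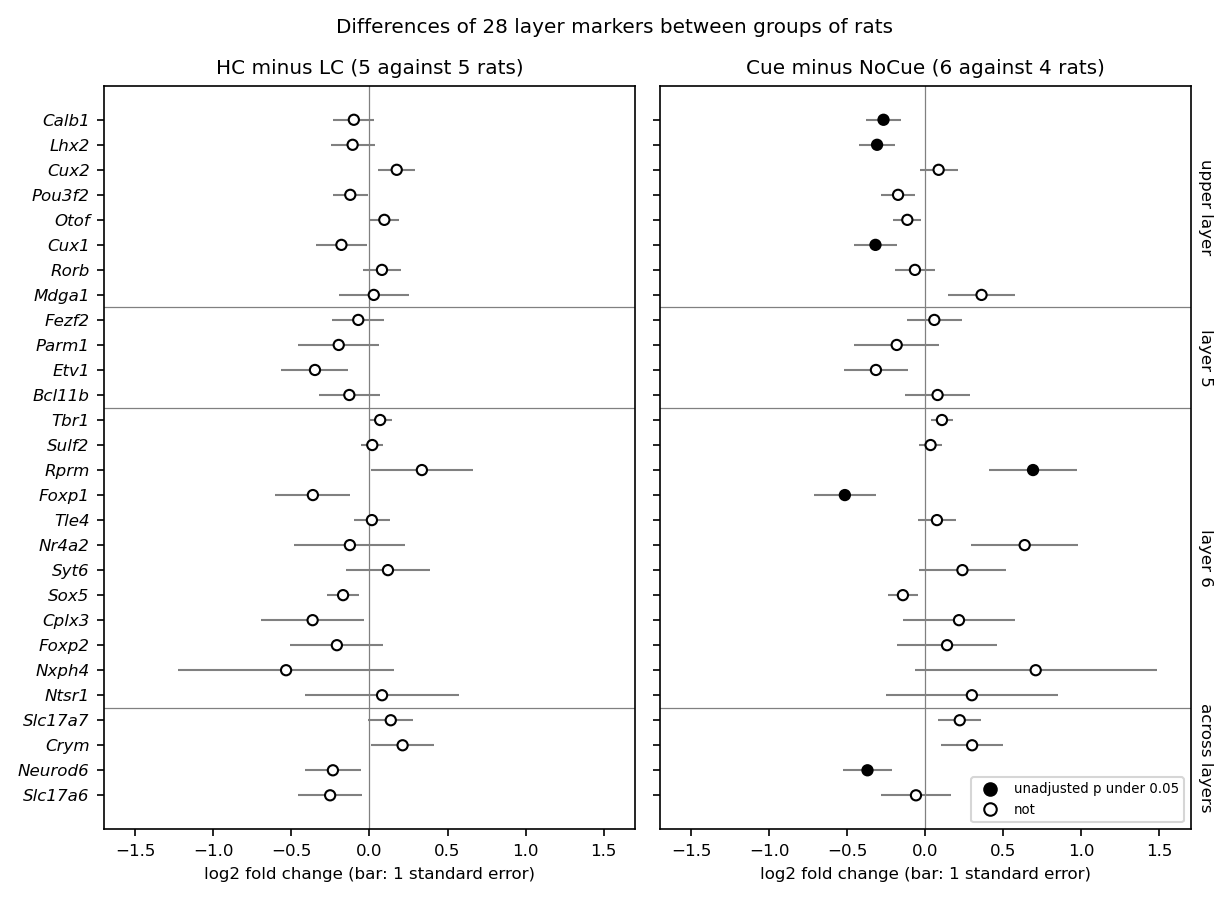
Log2 fold change of each member with 1 standard error, HC minus LC on the left and Cue minus NoCue with phenotype in the fit on the right; filled points have an unadjusted p under 0.05. No point is filled on the left; 6 are filled on the right, 5 of them below 0.

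The balance of upper and deep markers was taken per rat as the mean log2(TPM + 1) of the 8 upper layer markers minus that of the 16 layer 5 and layer 6 markers. It is a score over the members and was not tested. It stood at 0.21, 0.11, 0.31, 0.83 and 1.02 in HC rats and at 0.50, 0.90, 0.13, 0.21 and 0.28 in LC rats. The means were 0.50 ± 0.40 in HC and 0.40 ± 0.31 in LC rats (SD, n = 5 each), a difference far smaller than the spread between rats. HC rats 15 and 16 and LC rat 13 had the highest balance, and their layer 6 means of 3.84, 3.51 and 3.70 were below those of the other rats except LC rat 2, at 3.73. Their upper layer means of 5.03, 4.96 and 5.02 lay between 4.82 and 5.03, which also held those of the other rats except LC rats 2 and 4, at 4.34 and 4.78. These means are in TPM, without TMM scaling, so the low means of LC rat 2 do not carry over to CPM. In CPM that rat was highest for 5 of 8 upper layer and 5 of 12 layer 6 markers, and lowest for 1 and 0. By word the balance was 0.21 ± 0.10 in 3 HC Cue rats, 0.92 ± 0.13 in 2 HC NoCue rats, 0.51 ± 0.39 in 3 LC Cue rats and 0.24 ± 0.05 in 2 LC NoCue rats (SD), so the NoCue rats lay above the Cue rats in HC and inside their range in LC.

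**Figure D4:**
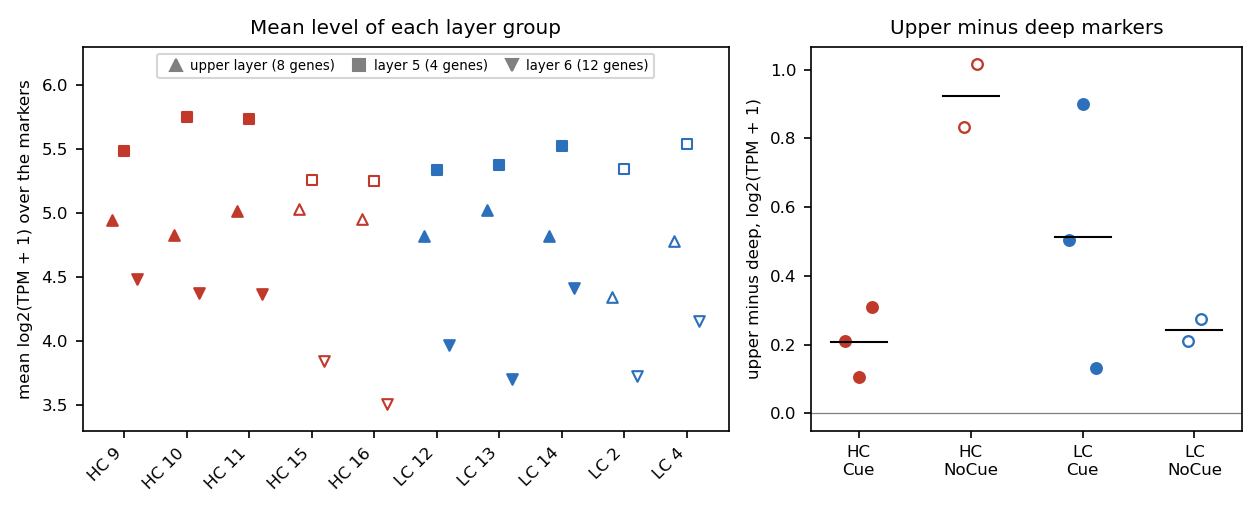
Left, mean log2(TPM + 1) of the upper layer, layer 5 and layer 6 members in each rat; right, upper minus deep (layers 5 and 6) in each rat by phenotype and table word, with the line at the mean. Filled symbols are Cue and open symbols NoCue; layer 6 means fall in HC rats 15 and 16 (3.84 and 3.51), whose upper minus deep values are 0.83 and 1.02.

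The second comparison set the 6 Cue rats against the 4 NoCue rats with phenotype as a term. An unadjusted p under 0.05 was found for 6 of 28 members in edgeR's quasi-likelihood test, beside 9.97% of all genes, and for no member or gene after Benjamini-Hochberg adjustment (smallest adjusted p of a member 0.494). Of the 6, 5 were lower in Cue rats, where 5.61% of all genes were called lower, and 1 was higher, against 4.36%. The groups overlapped for all 28 members, beside 2.07% of all genes without overlap. Upper layer markers made up 3 of the called genes. Lhx2, a LIM homeobox factor, was at 62.4, 58.6, 59.7, 64.1 and 75.9 CPM in HC rats and 55.3, 71.9, 56.5, 94.2 and 68.1 CPM in LC rats, a log2 difference (Cue minus NoCue) of −0.31 (SE 0.11). Calb1 was at 81.6, 97.3, 103, 104 and 129 CPM in HC rats and 121, 98.6, 90.6, 132 and 109.9 CPM in LC rats, a difference of −0.27 (SE 0.11). For both genes the highest NoCue rats were LC rat 2 and HC rat 16, and the ranges of the words overlapped. Cux1, with the values above, differed by −0.32 (SE 0.14).

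Foxp1, a forkhead factor shared by several cortical layers and by striatal neurons, was at 46.4, 45.0, 51.9, 52.5 and 50.5 CPM in HC rats and 48.7, 50.6, 42.4, 118 and 58.7 CPM in LC rats, a difference of −0.52 (SE 0.20). LC rat 2 lay far above the rest, and LC rat 4, the rat with the highest striatal markers, came next. Neurod6 differed by −0.37 (SE 0.15), again with LC rat 2 highest. Rprm was the member that was higher in Cue rats, at 41.0, 38.6, 33.0, 29.5 and 12.9 CPM in HC rats and 35.3, 14.9, 35.04, 15.0 and 22.7 CPM in LC rats, a difference of 0.69 (SE 0.28). Only LC rat 13 among the Cue rats lay as low as the NoCue rats.

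None of the 6 calls held through every omission of 1 rat. Lhx2 lost its call without HC rat 16 (log2 difference −0.28) or LC rat 2 (−0.18). Calb1 lost it without HC rat 9 (−0.22) or 16 (−0.19) or LC rat 2 (−0.22), 13 (−0.26) or 14 (−0.23). Cux1 lost it without HC rat 10 (−0.29), 11 (−0.33) or 16 (−0.34) or LC rat 2 (−0.13), 12 (−0.32), 13 (−0.33) or 14 (−0.27). Foxp1 lost it without LC rat 12 (−0.49), 13 (−0.50) or 14 (−0.44), and kept an unadjusted p under 0.05 without LC rat 2 at a smaller difference of −0.18. Neurod6 lost it without HC rat 9 (−0.37) or LC rat 2 (−0.14), 12 (−0.37), 13 (−0.35) or 14 (−0.31). Rprm lost it without HC rat 9 (0.65), 10 (0.67) or 16 (0.48) or LC rat 2 (0.60), 12 (0.62) or 14 (0.62). The directions of these 6 did not change in any of those fits. With the summed striatal level of each rat as a covariate, 7 members were called beside 5.82% of all genes. Lhx2, Calb1, Cux1 and Rprm were still among them, Foxp1 (−0.57) and Neurod6 (−0.40) were not, and Tle4 (0.29), Bcl11b (0.46) and Pou3f2 (−0.33) were called there and not without the covariate.

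Nr4a2, the nuclear receptor Nurr1, is expressed in layer 6b and claustrum neurons and is also induced rapidly by neuronal activity in rodents. It was named after its values were seen. It was at 45.8, 36.8, 41.7, 14.1 and 17.8 CPM in HC rats and 27.1, 31.3, 42.5, 52.1 and 17.7 CPM in LC rats. The 6 Cue rats lay between 27.1 and 45.8 CPM, and 3 of the 4 NoCue rats lay below all of them, at 14.1 to 17.8 CPM. The fourth NoCue library, LC rat 2, was the highest of all. With all rats the log2 difference of 0.64 (SE 0.34) was not called by edgeR after TMM scaling. It was called at an unadjusted p under 0.05 by limma-voom, and by edgeR with scaling to library size alone, where the median of all genes was 0.10. Without LC rat 2 it was 1.23 (SE 0.16), and edgeR's quasi-likelihood test gave it an adjusted p of 0.031; it was 1 of 20 genes (0.140% of all tested) to pass adjustment. Leaving out LC rats 2 and 4 leaves no LC NoCue rat, so the difference then rests on 3 HC Cue against 2 HC NoCue rats, with the LC Cue rats adding only to the estimate of spread. That fit called 10 members beside 6.50% of all genes, and in it Nr4a2 differed by 1.40 with an adjusted p of 0.094. Its adjusted call therefore rests on leaving out LC rat 2 alone, a choice made because its library stood apart in mitochondrial reads and scaling. The claustrum list (Gnb4, Nr4a2, Ntng2, Oprk1 and Gng2) summed to 316 to 417 CPM in Cue rats and 355 to 451 CPM in NoCue rats, ranges that overlapped.

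**Figure D5:**
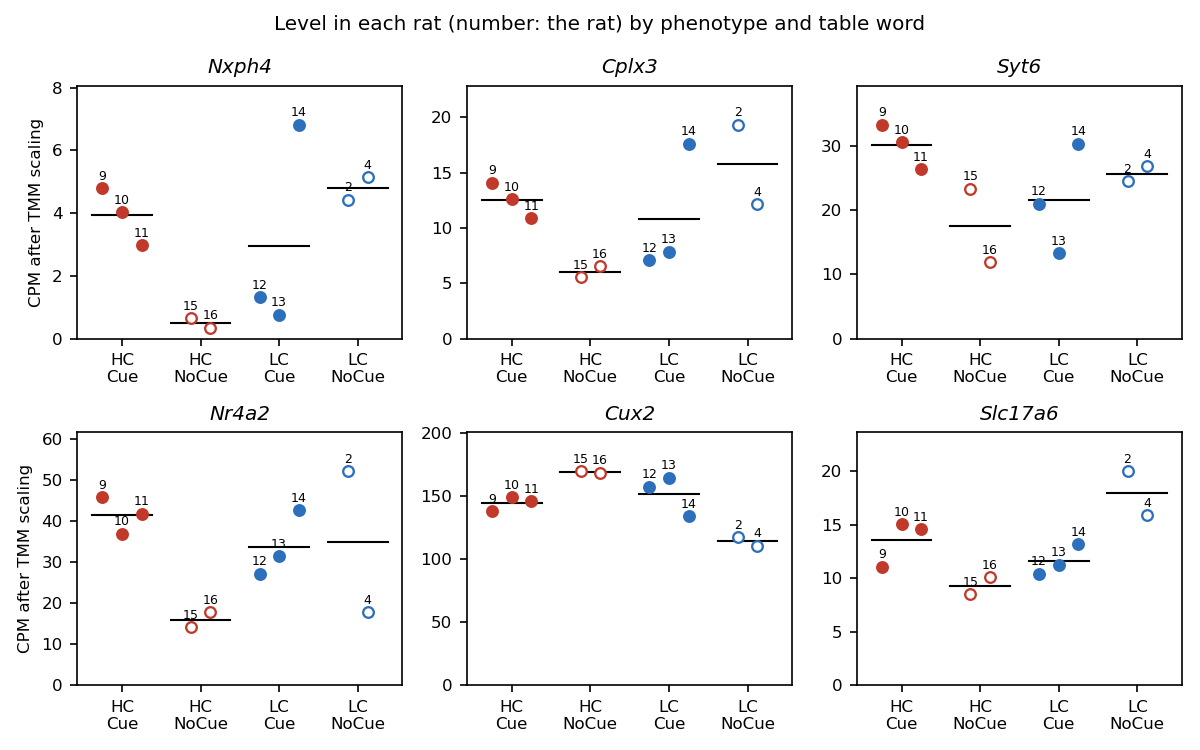
CPM after TMM scaling of 6 members in each rat by phenotype and table word; the number is the rat, the line the group mean, filled points Cue and open points NoCue. Nr4a2 lies at 14.1 to 17.8 CPM in HC rats 15 and 16 and LC rat 4 and at 27.1 CPM or more in the others, and Nxph4 and Cplx3 are low in HC rats 15 and 16 and LC rats 12 and 13.

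The Cue difference was then taken within each phenotype, an analysis added after the data were seen, as contrasts of the fit with an interaction. In HC rats, 3 Cue against 2 NoCue, 8 of 28 members had an unadjusted p under 0.05, 7 of them higher in Cue rats, beside 2.94% of all genes, 1.91% higher and 1.03% lower. Of these, 5 were layer 6 markers: Nxph4 by 2.85 (SE 0.90), Ntsr1 by 1.68 (SE 0.56), Nr4a2 by 1.39 (SE 0.38), Cplx3 by 1.06 (SE 0.39) and Foxp2, a forkhead factor of corticothalamic neurons, by 0.91 (SE 0.33). Foxp2 was at 16.1, 19.5, 15.4, 11.0 and 6.79 CPM in HC rats and 16.3, 7.39, 16.9, 19.7 and 19.8 CPM in LC rats, so that both HC NoCue rats and LC rat 13 were the low ones. Fezf2 was higher by 0.48 (SE 0.18), Slc17a6 by 0.55 (SE 0.19), and Cux2 was lower by 0.23 on the log2 scale (SE 0.10). The median difference in HC rats was 0.77 over the 12 layer 6 markers, 0.36 over the 4 layer 5 markers, −0.18 over the 8 upper layer markers and −0.01 over all genes. No member passed adjustment, with adjusted p of 1.00 in edgeR's test. The HC Cue rats lay above or below both HC NoCue rats for 15 of 28 members, beside 23.5% of all genes, and 8 of these were layer 6 markers that were higher, beside 11.5%.

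In LC rats 8 of 28 members were called, 6 lower and 2 higher in Cue rats, beside 27.5% of all genes (14.7% lower and 12.8% higher), so the share of members was near that of all genes. Among them Cux2 was higher by 0.42 (SE 0.10), Slc17a7 by 0.44 (SE 0.18), and Foxp1 lower by 0.90 (SE 0.23). Slc17a6 was at 11.1, 15.1, 14.6, 8.48 and 10.1 CPM in HC rats and 10.4, 11.3, 13.2, 20.0 and 15.9 CPM in LC rats. Its LC Cue rats lay below both LC NoCue rats, by 0.62 on the log2 scale (SE 0.18), and its HC Cue rats above both HC NoCue rats. In LC rats 8 of 28 members showed no overlap between the words, beside 39.4% of all genes. This comparison holds LC rats 2 and 4 as its NoCue side, the library that stood apart and the one with the highest striatal markers, and what each adds cannot be told apart from the word.

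The difference between the phenotypes in the Cue difference (HC minus LC) had an unadjusted p under 0.05 for 10 of 28 members, beside 13.3% of all genes, and for none after adjustment in edgeR's test (smallest adjusted p 0.368). Of the 10, 9 were more positive in HC rats, beside 7.45% of all genes, and 1 was more negative, beside 5.89%. The more positive ones were Nxph4 by 3.50 (SE 1.14), Ntsr1 by 2.52 (SE 0.76), Cplx3 by 1.57 (SE 0.53), Foxp2 by 1.46 (SE 0.46), Nr4a2 by 1.43 (SE 0.52), Slc17a6 by 1.17 (SE 0.26), Etv1 by 0.84 (SE 0.33), Fezf2 by 0.82 (SE 0.25) and Foxp1 by 0.79 (SE 0.33). The negative one was Cux2, at −0.64 (SE 0.14). Without LC rat 2 the LC NoCue side is LC rat 4 alone, the rat with the highest striatal markers, which is then assumed to vary like the other groups. In that fit 10 members were again called, beside 7.04% of all genes. Cplx3 (1.20), Nr4a2 (0.46), Etv1 (0.25) and Foxp1 (0.20) then lost the call, and Cux2 (−0.69), Nxph4 (3.58), Ntsr1 (2.47), Foxp2 (1.45), Slc17a6 (1.00) and Fezf2 (0.55) kept it, while Tle4 (0.61), Bcl11b (1.01), Otof (0.30) and Pou3f2 (−0.43) gained it.

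The fixed list of further layer genes, of which 27 were tested, was read beside the members. In HC against LC, 2 of 27 had an unadjusted p under 0.05, beside 1.74% of all genes: Crim1, a transmembrane gene of layer 5 neurons, by 0.15 (SE 0.06) and Pcp4, a calmodulin regulator of deep layer neurons, by −0.55 (SE 0.22). Every HC rat lay above every LC rat for Crim1, at 120.0 to 131 CPM against 106 to 118 CPM, as for 0.439% of all genes in either direction. Pcp4 is also a striatal gene, its highest rats were LC rats 2 (141 CPM) and 4 (104 CPM), and it was not called without LC rat 2 (−0.32). In Cue against NoCue, 4 of 27 were called, beside 9.97% of all genes: Bcl6 (0.34, SE 0.14) and Thsd7b (0.42, SE 0.18) were higher in Cue rats and Wfs1 (−0.19, SE 0.08) and Neurod1 (−0.51, SE 0.14) lower. With that rat left out, 4 of 27 were called, beside 9.00%: Bcl6 (0.39) and Neurod1 (−0.41) remained, Zfpm2 (0.29) and Oprk1 (−0.92) were added, and Thsd7b (0.41) and Wfs1 (−0.15) were lost at much the same differences. Within HC rats 5 of 27 were called, beside 2.94% of all genes: Ccn2, Bcl6 (0.55), Zfpm2 (0.46) and Pcp4 (0.34) were higher in Cue rats and Emx1 (−0.44) lower. The 13 deep genes on the list summed to 450.2 to 477 CPM in HC rats 15 and 16 and LC rats 12 and 13 and to 492 to 738 CPM in the other 6 rats. These 13 include layer 5 genes such as Crim1, and their differences within HC rats were above 0 for 10 and below 0 for 3. The 3 were Svil (−0.31), Deptor (−0.19) and Oprk1 (−0.18), none of them called. The 6 cross-layer genes on the list went the other way. They summed to 3834 to 4134 CPM in those 4 rats and 3187 to 3398 CPM in the others except LC rat 2, at 4329 CPM. All 6 were below 0 within HC rats. Ccn2, a matricellular gene that marks layer 6b, was at 35.1, 26.03 and 19.1 CPM in the HC Cue rats and 12.7 and 18.1 CPM in the HC NoCue rats. Its HC Cue rats lay above both HC NoCue rats, with a difference of 0.81 (SE 0.27).

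Levels of other cell types were read beside the layer 6 genes. Oligodendrocyte markers, 8 genes of the white matter beneath layer 6, summed to 1465 and 1760 CPM in HC rats 15 and 16 and 1684 and 2159 CPM in LC rats 12 and 13, inside the 1379 to 2521 CPM of the other rats. The summed microglia, interneuron, thalamus and striatal markers of these 4 rats also lay inside the range of the others. Astrocyte markers did so except in LC rat 13, at 2209 CPM against 1899 to 2185 CPM. Vascular markers lay below the 112 to 178 CPM of the other 6 rats in LC rat 12 (100.1 CPM) and above that range in LC rat 13 (185 CPM). Choroid plexus markers were at 6.79 CPM in HC rat 16 against 1.04 to 4.95 CPM, and the claustrum list at 316 CPM in LC rat 13 against 346 to 451 CPM. Npy, an interneuron gene, was listed at 0 in every rat. No list of another cell type lay outside the range of the other 6 rats in all 4 of these rats, and the part of other cells in the layer 6 levels was not tested.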

How the data were processed

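RNA-seq of the mPFC of 10 rats was analysed from 1 deposited table per rat. The authors mapped trimmed reads to Rnor_6.0 in the CLC Genomics Workbench (version 21). They deposited counts of exon reads per gene, which were tested here, and TPM values, in which exon reads are divided by exon length and scaled to 1000000 per library. Whether reads were counted by strand is not stated in the labels or the methods. A table of the authors' own comparison holds fold changes and p-values and was not used. Rats were grouped by phenotype from the labels, and by the word Cue or NoCue from the names of the tables alone.

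Genes were kept by filterByExpr, libraries scaled by TMM and groups compared by edgeR 4.0.16 (quasi-likelihood test, R 4.3.3), and p-values were adjusted over 14135 genes (Benjamini-Hochberg). Standard errors are the log2 fold change over the square root of F. DESeq2 1.42.0 and limma-voom (limma 3.58.1) were alternatives, beside other scalings, filters, read counts, covariates and each rat left out. The fits were tested on simulated counts. CPM are exon reads per 1000000 after TMM scaling, and log2 levels add 1. No 2 libraries differed as little as sampling noise (chi-square per gene at least 4.59).

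The members and lists were chosen with earlier results of these data known. Values in every rat are given for members with an unadjusted p under 0.05 in either comparison, the 2 members of each layer group with the largest HC to LC change, and 6 textbook markers; Nr4a2, Ntsr1, Foxp2 and Syt6 were added after their values were seen.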

Additional observations from a re-analysis of the deposited data

Results flagged for a closer look

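The level of LC rat 2 stood apart from the other 4 LC rats for 5 members, with a gap to the nearest rat that was over the critical share of the range for 5 values. Cux1 was at 63.4 CPM in that rat against 32.7 to 39.6 CPM in the others, Etv1 at 285 against 125 to 143 CPM, Foxp1 at 118 against 42.4 to 58.7 CPM and Neurod6 at 165 against 74.8 to 99.3 CPM. Slc17a7 was low in it, at 1095 CPM against 1759 to 2020.2 CPM. Foxp2 stood apart in LC rat 13, at 7.39 CPM against 16.3 to 19.8 CPM in the other LC rats. These are 6 of 58 groups of values examined, where the nominal rate of the rule is about 1 in 20. Of the 6, 5 come from LC rat 2, whose library stood apart in mitochondrial reads and scaling. The share of all genes flagged this way was not taken, so the count is no result about layer markers.

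The Cue difference was not alike in HC and LC rats for 10 members, by the interaction term of edgeR's quasi-likelihood test at an unadjusted p under 0.05, beside 13.3% of all genes, and none passed Benjamini-Hochberg adjustment (adjusted p 0.368 or more). On the log2 scale, HC minus LC, it was −0.64 for Cux2, 0.84 for Etv1, 0.82 for Fezf2, 1.46 for Foxp2, 0.79 for Foxp1, 2.52 for Ntsr1, 3.50 for Nxph4, 1.57 for Cplx3, 1.43 for Nr4a2 and 1.17 for Slc17a6. Without LC rat 2, where LC rat 4 is the only LC NoCue rat, the differences of Cplx3 (1.20), Nr4a2 (0.46), Etv1 (0.25) and Foxp1 (0.20) were no longer called, beside 7.04% of all genes called.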

How the results depend on the processing

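The count of members at an unadjusted p under 0.05 in HC against LC was 0 in the reported fit. It was 0 to 1 with each rat left out, beside 1.09 to 4.49% of all genes. Without LC rats 2 and 4 it was 1 (Otof), beside 1.55%, and with the striatal level as covariate 1 (Otof), beside 0.700%. In the 4 NoCue rats alone it was 6, beside 4.19% of all genes (Cplx3, Cux2, Foxp2, Ntsr1, Nxph4 and Slc17a6). In Cue against NoCue the count of 6 was 1 to 7 with each rat left out, beside 6.20 to 16.6% of all genes: 3 without HC rat 9 or LC rat 2, 2 without HC rat 16, LC rat 12 or LC rat 13, and 1 without LC rat 14. It was 10 without LC rats 2 and 4, beside 6.50% of all genes. Genes with an adjusted p under 0.05 in that comparison numbered 0 in edgeR's fit, 0 to 20 with each rat left out (20 without LC rat 2), 2 without LC rats 2 and 4, and 40 by DESeq2. For the difference of the Cue effect they were 0, and 3 without LC rat 2. Values that turned direction and were called there belonged to Cux2 and Slc17a6 in Cue against NoCue: Cux2 was at −0.23 and Slc17a6 at 0.56 without LC rats 2 and 4, and at −0.23 and 0.55 in HC rats alone. By exact permutation on TPM in place of CPM, 1 member (Rorb, p = 0.032) passed 0.05 in HC against LC, where its exact permutation p on CPM was 0.52. The share of all genes passing on TPM was not taken. LC rat 2 held the lowest Rorb level in TPM (10.3) and the highest in CPM (19.8), and TPM carries no TMM scaling. Upper minus deep, Cue minus NoCue taken within phenotype, was −0.22. It became −0.72 without LC rats 2 and 4, which is the difference within HC rats alone, as no LC NoCue rat is left. The causes were not tested. Over single members and alternatives, 694 of 825 values kept direction and call, 49 lost a call and 22 gained one in the same direction, 4 turned and were called, and 56 turned without a call in either fit. The turned values belonged to 14 genes in HC against LC and 10 in Cue against NoCue. No paired analysis was possible because the rat numbers of HC and LC do not coincide. The p-values of the fits weigh each group difference against the spread between these rats, estimated over all groups with information shared across genes. Depth limits Nxph4 most, with as few as 4 exon reads in a rat.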
